A study of Mus musculus with 55 samples.

Results

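Genes that encode islet hormones and the machinery that cuts them to size are described across mouse islets that lack the Polycomb subunit Eed in β cells. The 9 genes, of 47937 counted, are the insulin genes Ins1 and Ins2, the amylin gene Iapp, the convertases Pcsk1 and Pcsk2, the convertase inhibitor Pcsk1n, the carboxypeptidase Cpe, the convertase chaperone Scg5 and the amidating enzyme Pam. They were listed by name for their place in prohormone maturation, and each was found in the table of read counts by its Ensembl identifier. All 9 passed the filter on low counts.

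RNA of whole islets from male C57B6/J mice was sequenced in 16 libraries. Wild-type mice gave 3 libraries at 8 weeks of age and 3 at 25 weeks, mice labelled heterozygous gave 3 and 2, and mice labelled Eed -/- gave 3 and 2. In the last group, called βEedKO, a Cre recombinase under a rat insulin promoter deletes floxed Eed alleles, so the islet cells other than β cells keep the gene, and the labels do not say which of the other groups carried Cre or floxed alleles. By the study's methods a library held the islets of 1 or a few mice, and the 2 βEedKO libraries at 25 weeks were each pooled from several animals. The labels describe culture of the picked islets in medium with 11 mM glucose, and the time between isolation and lysis is not given in the sources used here. Levels are given as CPM, read counts relative to the total of the library after scaling by TMM, and differences as log2 fold changes with their standard errors.

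Insulin and amylin are made as longer precursors. Convertases cut the precursors after pairs of basic amino acids, lysine or arginine, while the secretory granule fills. Carboxypeptidase E then trims the basic residues left at the cut ends, and the amidating enzyme converts a glycine at the end of amylin into the amide that the mature hormone carries. Eed is a core subunit of Polycomb repressive complex 2, which places methyl groups on histone H3 lysine 27.

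The cut sites can be read in the coding sequences, and they are shown because they are the substrates on which the processing genes act. Each line gives 30 bases of the coding strand from the GENCODE transcripts of GRCm38, 5′ to 3′, with the codons of the basic pair in capitals. For the second site of Iapp the capitals also take in the glycine codon that supplies the amide.
Ins1, first site, codons from 55: acacccaagtccCGCCGTgaagtggaggac
Ins2, first site, codons from 55: acacccatgtccCGCCGTgaagtggaggac
Ins1, second site, codons from 86: gtggcccggcagAAGCGTggcattgtggat
Ins2, second site, codons from 88: gtggcccagcagAAGCGTggcattgtagat
Iapp, first site, codons from 36: cctcagatggacAAACGGaagtgcaacacg
Iapp, second site, codons from 76: aatacatatGGCAAGAGGaatgcggcaggg
In both insulin genes the first pair, arginine-arginine, joins the B chain to the C-peptide and the second, lysine-arginine, joins the C-peptide to the A chain. In Iapp lysine-arginine pairs flank the amylin sequence on either side. Over the aligned coding bases Ins1 and Ins2 were 92.4% identical, and the longest run they shared was 56 bases. Of the 50-base windows of the principal transcripts, 7 were common to both genes, 0.691% of those of Ins1 and 1.39% of those of Ins2. Reads that match without error over 50 bases can be assigned to 1 of the genes over the rest of both transcripts.

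Start-site sequence was taken from the RefSeq promoter table for GRCm38.p6, which held an entry for 7 of the 9 genes and none for Ins2 or Cpe. The promoters of Ins1 and Iapp are shown because these hormone genes fell at 25 weeks, and that of Pcsk1 because it separated the genotypes at both ages. Each run spans 250 bases before to 50 after the start site, and capitals mark TAAT or its reverse complement ATTA, the E box CANNTG and, in Pcsk1, the cyclic AMP response element TGACGTCA.
Ins1, chr19:52264047-52264346, plus strand: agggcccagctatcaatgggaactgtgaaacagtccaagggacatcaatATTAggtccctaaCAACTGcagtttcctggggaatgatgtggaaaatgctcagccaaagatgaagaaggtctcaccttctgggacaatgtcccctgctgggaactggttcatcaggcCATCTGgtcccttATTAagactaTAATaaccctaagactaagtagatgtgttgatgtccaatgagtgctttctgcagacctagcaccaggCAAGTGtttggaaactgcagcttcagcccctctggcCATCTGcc
Iapp, chr6:142298175-142298474, plus strand: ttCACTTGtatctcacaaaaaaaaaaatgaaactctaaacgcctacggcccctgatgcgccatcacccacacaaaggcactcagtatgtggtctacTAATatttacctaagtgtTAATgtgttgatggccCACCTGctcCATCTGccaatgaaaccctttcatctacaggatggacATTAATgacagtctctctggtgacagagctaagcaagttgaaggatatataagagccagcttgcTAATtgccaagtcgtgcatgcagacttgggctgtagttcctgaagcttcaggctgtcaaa
Pcsk1, chr13:75089607-75089906, plus strand: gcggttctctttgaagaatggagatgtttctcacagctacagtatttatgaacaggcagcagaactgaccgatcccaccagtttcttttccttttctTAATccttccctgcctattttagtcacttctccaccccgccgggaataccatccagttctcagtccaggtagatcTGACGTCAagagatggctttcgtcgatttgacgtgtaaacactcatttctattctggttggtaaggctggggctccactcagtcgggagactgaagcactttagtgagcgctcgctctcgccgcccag
On both strands the Ins1 window held 3 TAAT and 4 E box matches and the Iapp window 5 and 3. The 2 motifs are common, since 58% of the 32851 promoters held TAAT and 72.3% an E box. The Pcsk1 window held 1 cyclic AMP response element, 78 bases before the start site, a match that 1.79% of promoters had. The Ins1 promoter had 0 CpG dinucleotides, Iapp 4 and Pcsk1 13, while Pcsk2 had 36 and Pam 35, against a median of 7 over all promoters. The matches are descriptions of the letters and were not tested as binding sites. The Ins1 window is set on the start of a gene model longer than the RefSeq transcript, and its matches and CpG count may depend on that start.

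In the segmentation of wild-type islet chromatin, which gives each 200-base bin on the autosomes 1 of 24 state letters and holds no measured level, 7 of the 8 autosomal genes had the start of their principal transcript in state A, the state of active start sites. These were Ins2, Iapp, Pcsk1, Pcsk2, Cpe, Scg5 and Pam. The 24 letters differ in number from the states that the study's text gives for its model. Ins1 (chromosome 19, 52264297 to 52265476) started in state C, a state that flanks start sites, and entered state A within the gene. State C covered 104 bases of the Ins1 span. The letter at the start may depend on the gene model, which is 1062 bases long against 601 for the RefSeq transcript. Other starts of Ins1 were not examined. For Ins2 (chromosome 7, principal transcript 142678659 to 142679698) the result depended on the start chosen. The transcript that begins 63683 bases upstream started in state K, counted here as bivalent, and 7 of 9 protein-coding starts were in state A. Pcsk1n lies on chromosome X and has no state. The 3 hormone genes are short, and start-site states A and B covered 91.1% of Ins1, 100% of Ins2 and 93.5% of Iapp. The processing genes are long, and the same states covered 1.18% of Pam to 3.05% of Pcsk1. Pcsk2 and Cpe were mostly in flanking and proximal regulatory states, 78.3% and 81.4% of their spans, whereas 48.9% of Pcsk1 was in elongation states. Bivalent states K to M covered 3.11% of Pcsk1, 2.7% of Pam and 1.14% of Scg5, and Polycomb states N to R covered 0%, 1.38% and 2.27% of the same genes. Together the 2 classes reached 4.08% of Pam, the highest of the 8 genes, and 0% of Ins1, Ins2 and Iapp. The letters were grouped into classes here, and the study's text names L and M as bivalent and does not name K. State K alone covered 2.48% of Pam, and the rank of Pam as highest rests on counting K. The 2 classes reached 3.41% of Scg5, which had no state K. Heterochromatin, repeat or quiescent states covered 27.1% of Pam, 13.3% of Scg5 and 7.48% of Pcsk2.

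**Figure D1:**
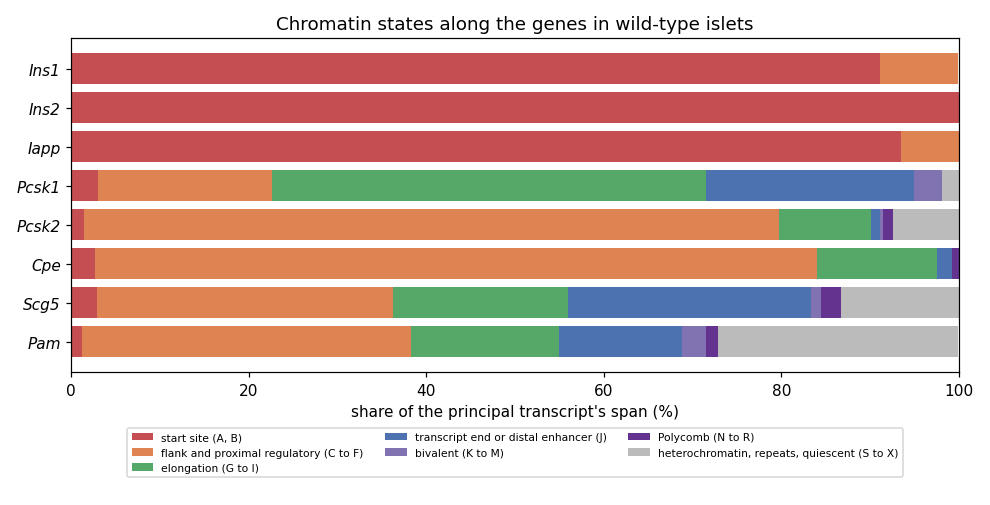
Share of each gene's principal transcript span, in percent, in 7 classes of chromatin state from wild-type islets. Bars of Ins1, Ins2 and Iapp consist almost wholly of start-site states, while those of the 5 processing genes hold 1.18% to 3.05% of them. Pcsk1n, on chromosome X, is not drawn.

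Libraries held 4645393 to 22925359 counted reads, the fewest in wild-type replicate 2 at 25 weeks. The sum of insulin reads took 9.4% to 18.9% of the counts in 14 libraries, but 0.891% and 2.21% in βEedKO replicates 2 and 3 at 25 weeks. Eed itself was 13.4 to 14.9 CPM in βEedKO and 23.9 to 33.1 in wild type at 8 weeks, and 14.2 and 15.6 against 19.3 to 28.3 at 25 weeks. The βEedKO libraries were all below the wild-type ones at both ages, with log2 fold changes of -1.04 ± 0.22 and -0.69 ± 0.25 and adjusted p of 0.0881 and 0.142 in edgeR's quasi-likelihood test. Several libraries stood apart in other cell types or states. The summed level of 9 acinar markers, among which Ctrb1 was the most abundant gene of its library, was 438000 CPM in βEedKO replicate 2 at 25 weeks and 13500 in replicate 3, and 33500 to 242000 in wild type of that age. Interferon-induced markers summed to 3040 to 4440 CPM in replicates 3 and 4 of wild type and 4 and 5 of βEedKO at 8 weeks, and to 43.2 to 114 in all other libraries.

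In wild-type islets at 8 weeks the hormone genes were far above their processing enzymes per length of transcript. On the scale of CPM per kilobase of the principal transcript the mean levels were 213000 ± 47600 (SD, n = 3) for Ins2, 34400 ± 6480 for Ins1, 24600 ± 5980 for Iapp, 1620 ± 329 for Cpe and 667 ± 91.4 for Pcsk2. Scg5 followed with 610 ± 140, Pcsk1n with 247 ± 21.2, Pam with 137 ± 37.1 and Pcsk1 with 59 ± 7.18. The ranges of Ins1 and Iapp overlapped, as did those of Pcsk2 and Scg5. The mean of Ins1 was above that of Iapp, but whether their ranges overlap rests on transcript length, since the model of Ins1 used here is 1062 bases long and the RefSeq transcript 601. With RefSeq lengths Ins1 reached 47800 to 69400 CPM per kilobase and Iapp 24400 to 37900, and the ranges did not overlap. In βEedKO islets at 25 weeks Ins2 remained first, at 19400 ± 2780 CPM per kilobase (n = 2), and Pcsk1 last, at 27.7 ± 12.6. Pcsk2, at 210 ± 35.6, lay below Scg5, at 372 ± 0.801, and its range overlapped that of Pcsk1n, at 213 ± 39.2.

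At 8 weeks the hormone genes did not separate the genotypes. Pcsk1 and its inhibitor did, but edgeR called 0 of the 9 genes. Over all genes 4.86% lay wholly below and 6.54% wholly above wild type. Ins1 was 41700, 39200 and 28800 CPM in wild-type replicates 1, 3 and 4, and 36400, 23600 and 39700 CPM in βEedKO replicates 1, 4 and 5. The 2 groups overlapped. Ins2 was 125000, 139000 and 88400 CPM in wild type and 127000, 92200 and 154000 CPM in βEedKO, again with overlap. Iapp was 17000, 26400 and 18700 CPM against 15300, 13800 and 19800 CPM. The log2 fold changes of the 3 hormone genes were -0.14 ± 0.57, 0.08 ± 0.74 and -0.34 ± 0.54, each smaller than its standard error.

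Pcsk1 encodes prohormone convertase 1, which makes the first cut in proinsulin. Its level was 255, 317 and 319 CPM in wild type and 146, 161 and 132 CPM in βEedKO at 8 weeks. All βEedKO libraries lay below all wild-type libraries, and also below the heterozygous ones at 283, 275 and 293 CPM. The log2 fold change was -1.03 ± 0.28 (adjusted p = 0.222 in edgeR's quasi-likelihood test over 18685 genes), so the difference did not pass the threshold. DESeq2 gave -1.01 with an adjusted p of 0.024, and edgeR gave -0.99 when heterozygous libraries joined the wild-type controls, with an adjusted p of 0.015.

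Pcsk1n encodes proSAAS, a granule protein that inhibits that convertase. At 8 weeks it was 507, 523 and 594 CPM in wild type and 802, 725 and 1100 CPM in βEedKO, so that every βEedKO library was the higher. Heterozygous libraries had 629, 436 and 494 CPM. Its log2 fold change was 0.69 ± 0.25 (adjusted p = 0.479 in edgeR), and with pooled controls 0.72 with an adjusted p of 0.0382. With DESeq2 the adjusted p was 0.0609. Of all genes tested, 4.86% had every βEedKO library below every wild-type library at 8 weeks, and 6.54% had every one above, against 1 of the 9 genes in each direction. Neither count of 1 stands apart from these shares. Among all genes edgeR called 0.434% at this age and 0 of the 9, and with the replicate number as a block it called 0 genes in all.

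At 8 weeks interferon-induced markers were low in replicate 1 and high in the other 2 libraries of both wild type and βEedKO, and low in all 3 heterozygous libraries. Their part in these differences was not tested.

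The other processing genes overlapped between the genotypes at 8 weeks. Pcsk2, the convertase of the second cut, was 2650 to 3440 CPM in wild type and 2690 to 3360 in βEedKO. Cpe was 2700 to 4090 and 2850 to 3870 CPM. Scg5, which encodes the chaperone 7B2 that prohormone convertase 2 needs to become active, was 588 to 921 and 606 to 915 CPM. Pam was 389 to 664 and 385 to 546 CPM. Their log2 fold changes lay between -0.27 and 0.00, each within its standard error.

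**Figure D2:**
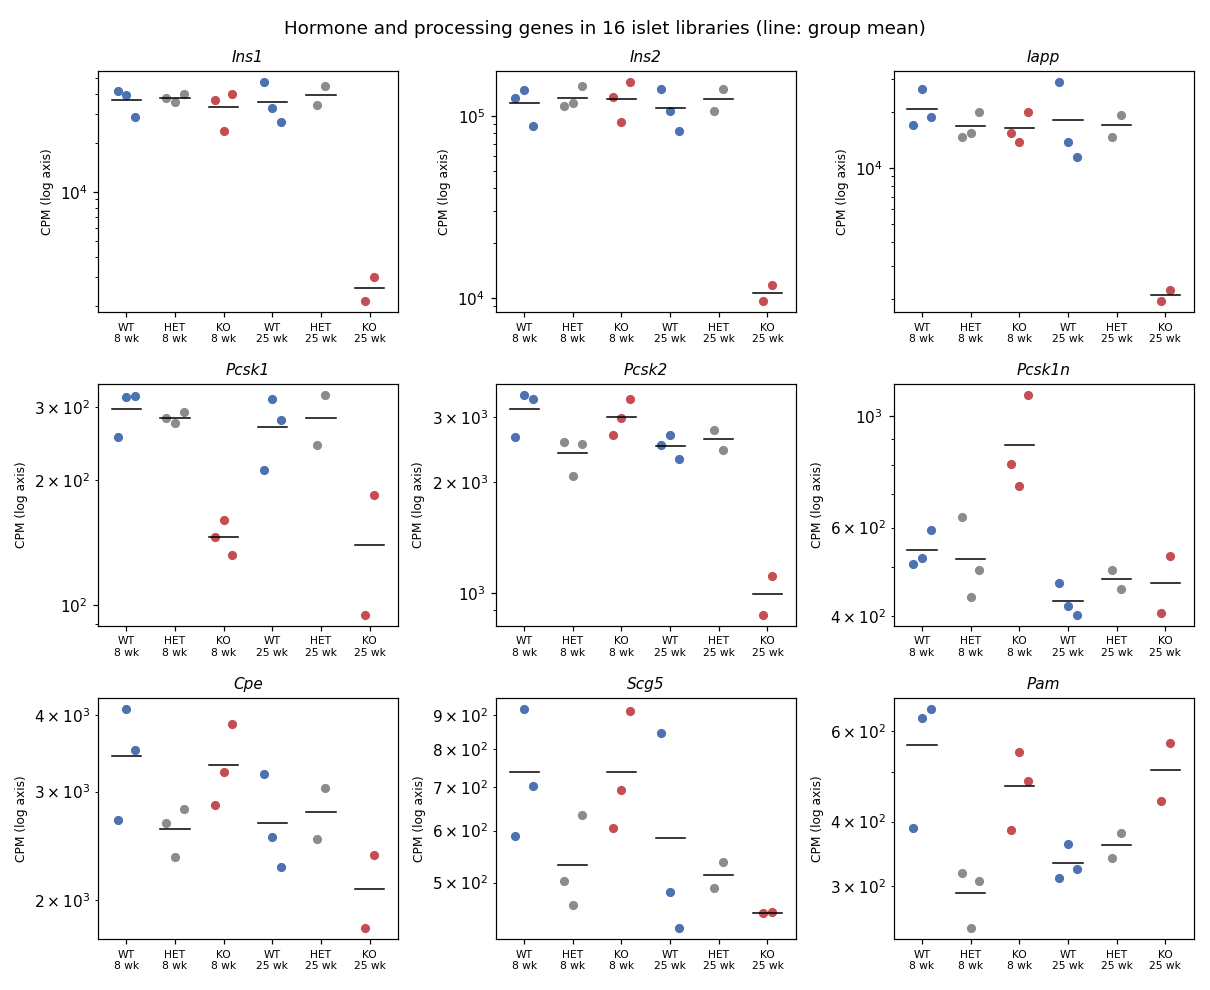
CPM of the 9 genes in each of the 16 libraries on log axes, by genotype and age; points are libraries and lines group means. Ins1, Ins2, Iapp and Pcsk2 have their 2 lowest values in the βEedKO libraries at 25 weeks, whereas Pcsk1 is at 132 to 161 CPM in βEedKO at 8 weeks, below all wild-type libraries.

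At 25 weeks Ins1, Iapp and Pcsk2 fell in βEedKO islets, and Cpe, Scg5, Pcsk1n and Pam did not differ past the threshold. The call of Pcsk2 was the least firm, since it was lost under 15 of 20 alternative scalings, filters, tests, controls, blocks and left-out libraries, against 4 for Ins1 and 5 for Iapp. Of the 9 genes 3 were called lower and 0 higher by edgeR, where 2.02% of all tested genes were called lower and 4.58% higher. The 9 genes were chosen with earlier results of these data known, so the shares give a setting for the counts and not a test. The median log2 fold change of the 9 genes was -1.0, against 0.03 over all genes tested. In bulk RNA fewer β cells and less RNA per β cell cannot be told apart.

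Ins1 was 47400, 32800 and 26800 CPM in wild-type replicates 2, 3 and 4 and 2140 and 3000 CPM in βEedKO replicates 2 and 3. Both βEedKO libraries were far below the lowest wild-type library. The log2 fold change was -3.85 ± 0.76 (adjusted p = 0.0141, edgeR). With the replicate number as a block it was -4.02 with an adjusted p of 0.108.

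Ins2, the more abundant insulin gene, was 140000, 107000 and 82300 CPM in wild type and 9600 and 11800 CPM in βEedKO. The groups did not overlap. Its log2 fold change was -3.42 ± 0.96 with an adjusted p of 0.0626 in edgeR, just outside the threshold, and -3.40 with an adjusted p of 2.43e-21 in DESeq2. With pooled controls edgeR gave an adjusted p of 0.00341.

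Iapp was 28900, 13700 and 11500 CPM in wild type and 1940 and 2230 CPM in βEedKO. The wild-type libraries differed among themselves by more, relative to their level, than for the other 8 genes, and all lay above both βEedKO libraries. The log2 fold change was -3.17 ± 0.69 (adjusted p = 0.0227, edgeR), and -3.32 with an adjusted p of 0.0963 with the block.

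The convertases were lower by less than the hormones. Pcsk2 was 2520, 2680 and 2310 CPM in wild type and 874 and 1110 CPM in βEedKO, with no overlap and a log2 fold change of -1.39 ± 0.36 (adjusted p = 0.0485, edgeR). The blocked value was -1.46 with an adjusted p of 0.0944, and scaling by library size alone gave -1.10 with an adjusted p of 0.31. Over the 20 alternatives the adjusted p of Pcsk2 reached 0.368. Pcsk1 was 212, 315 and 280 CPM against 95 and 185 CPM, also without overlap. Its log2 fold change was -1.0 ± 0.31 (adjusted p = 0.0926, edgeR) and passed the threshold with the block, at -1.02 and an adjusted p of 0.0437.

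The genes for the proteins that help or restrain the convertases, and for the enzymes that follow them, did not pass the test. Pcsk1n was 465, 420 and 403 CPM in wild type and 406 and 527 CPM in βEedKO, a log2 fold change of 0.06 ± 0.28. Scg5 was 847, 484 and 426 CPM against 449 and 450 CPM. Cpe was 3200, 2530 and 2260 CPM against 1800 and 2370 CPM, and both genes overlapped between the groups. Pam was 310, 362 and 323 CPM in wild type and 438 and 569 CPM in βEedKO, so that it was the only 1 of the 9 genes with both βEedKO libraries above all wild-type libraries. The log2 fold changes were -0.44 ± 0.38 for Scg5, -0.41 ± 0.39 for Cpe and 0.55 ± 0.31 for Pam, with adjusted p of 0.585, 0.632 and 0.366 in edgeR.

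Of all tested genes 15.9% had both βEedKO libraries below and 24.7% above the 3 wild-type libraries at 25 weeks. Below were 5 of the 9 genes, Ins1, Ins2, Iapp, Pcsk1 and Pcsk2. With either βEedKO library left out, 0 of the 9 genes were called, although the log2 fold changes of Ins1 stayed at -3.65 without replicate 2 and -4.10 without replicate 3. Without wild-type replicate 3 at 25 weeks 1 gene was called. Summed markers of duct, mesenchyme and alpha cells were higher in βEedKO at the same age. Those of PP, delta, endothelial, macrophage and Schwann cells overlapped wild type. Duct markers summed to 675 and 542 CPM in βEedKO and 228 to 297 in wild type, with 2 of 5 genes called higher. Among the duct markers Spp1 was 468 and 316 CPM against 28.4 to 58.6, while Krt7 was lower, at 104 and 125 CPM against 168 to 218. Mesenchyme markers summed to 187 and 174 CPM against 61.2 to 79.9, again with 2 of 5 called higher, and alpha cell markers to 12500 and 11800 CPM against 8250 to 9300, with 2 of 6. Their part in the difference of the hormone and convertase genes was not tested, nor was that of the acinar markers, which differed between the 2 βEedKO libraries.

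**Figure D3:**
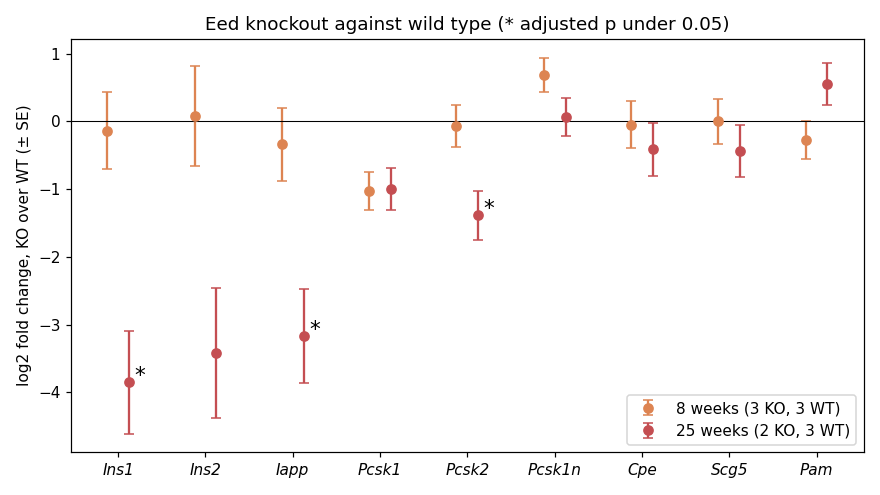
Log2 fold changes of βEedKO over wild type with standard errors at 8 weeks (3 and 3 libraries) and 25 weeks (2 and 3 libraries); asterisks mark adjusted p under 0.05 in edgeR. The hormone genes lie between -0.34 and 0.08 at 8 weeks and between -3.85 and -3.17 at 25 weeks, while Pcsk1 is at -1.03 and -1.0.

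Whether the genotype difference changed with age was tested as a difference of differences. The values were -3.72 ± 0.90 for Ins1, -3.50 ± 1.17 for Ins2, -2.83 ± 0.84 for Iapp and -1.32 ± 0.47 for Pcsk2, with adjusted p of 0.185 to 0.467 in edgeR, so that none passed, where 0.198% of all genes did. DESeq2 called the same 4 genes, with adjusted p up to 0.00146. For Pcsk1 the value was 0.02 ± 0.41, and for Pcsk1n -0.63 ± 0.38.

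Within βEedKO islets Ins1 fell by 3.74 ± 0.75 on the log2 scale between 8 and 25 weeks (adjusted p = 0.0397, edgeR), 1 of the 9 genes where 0.487% of all genes were called lower. Leaving out any of 10 of the 11 libraries, or scaling by library size alone, ended the call. Ins2, Iapp and Pcsk2 had log2 values of -3.59 ± 0.97, -3.02 ± 0.68 and -1.65 ± 0.37 with adjusted p of 0.12, 0.0626 and 0.0605. In wild type 0 of the 9 genes and 0% of all genes were called between the ages by edgeR, with 1898 genes at an unadjusted p under 0.05, and 139 genes were called by DESeq2. The 9 log2 values lay between -0.77 for Pam and -0.03 for Ins1. Age and the time at which libraries were made cannot be told apart.

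The heterozygous libraries were set against wild type with all 16 libraries modelled together. At 8 weeks edgeR called 0 of the 9 genes and 0% of all genes, with 2743 at an unadjusted p under 0.05, and DESeq2 called 407 genes. Pam was 317, 248 and 306 CPM in heterozygous and 389, 638 and 664 CPM in wild-type islets. The groups did not overlap, and the log2 fold change was -0.96 ± 0.23 (adjusted p = 0.217 in edgeR and 0.00525 in DESeq2). Without wild-type replicate 1, edgeR called Pam with an adjusted p of 0.0272. That library, at 389 CPM, was the wild-type library with low interferon-induced markers, which were also low in all 3 heterozygous libraries, and the wild-type libraries at 638 and 664 CPM had high ones. In βEedKO of the same age Pam was 385 CPM in the library with low and 546 and 479 CPM in those with high interferon-induced markers, and the part of these markers in the difference was not tested. The other 8 genes had log2 fold changes of -0.47 to 0.10. At 25 weeks the 9 genes lay between -0.19 and 0.16, and edgeR called 0 of them and 0% of all genes, with 210 at an unadjusted p under 0.05 and 3 called by DESeq2.

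Ratios of 2 genes within a library do not depend on how libraries are scaled, and they are given as descriptions without a test. Pcsk1n reads outnumbered Pcsk1 reads 1.99, 1.65 and 1.86 to 1 in wild type at 8 weeks and 5.5, 4.49 and 8.31 to 1 in βEedKO. The heterozygous libraries, at 1.58 to 2.22, lay with wild type. At 25 weeks the ratio was 2.19, 1.33 and 1.44 in wild type and 4.27 and 2.86 in βEedKO. Inhibitor message was thus 3.23-fold higher relative to convertase message at 8 weeks and 2.16-fold at 25 weeks, as ratios of geometric means. The ratio did not overlap at either age. At 8 weeks it could not overlap, since every βEedKO library was already below wild type for Pcsk1 and above it for Pcsk1n. The ratio therefore adds no separate evidence at that age. How often the ratios of other gene pairs fail to overlap was not counted. Of single genes 4.86% lay wholly below and 6.54% wholly above wild type at 8 weeks, and 15.9% and 24.7% at 25 weeks. At 8 weeks edgeR called neither Pcsk1 nor Pcsk1n.

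The balance of the 2 convertases separated the genotypes at 8 weeks and overlapped at 25. Reads of Pcsk1 per read of Pcsk2 were 0.0922 to 0.0963 in wild type and 0.0392 to 0.0543 in βEedKO at 8 weeks, without overlap. At 25 weeks they were 0.0841 to 0.121 and 0.109 and 0.166, with overlap. Scg5 reads per Pcsk2 read overlapped at 8 weeks and were 0.181 to 0.336 in wild type and 0.513 and 0.405 in βEedKO at 25 weeks.

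Ins2 relative to Ins1 was higher in both βEedKO libraries at 25 weeks, by 1.35-fold in geometric means, a difference that was not tested. Of single genes 24.7% lay wholly above wild type at that age. Ins2 reads per Ins1 read were 2.96 to 3.26 in wild type and 4.48 and 3.92 in βEedKO at 25 weeks, without overlap, and 3.0 to 3.55 and 3.49 to 3.91 at 8 weeks, with overlap. Iapp reads per insulin read, with insulin taken as Ins1 and Ins2 together, overlapped at 25 weeks, with 0.098 to 0.154 in wild type and 0.165 and 0.151 in βEedKO.

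Reads of the processing genes per hormone read were higher in βEedKO at 25 weeks, when the hormone reads were fewer. The processing genes themselves were not called higher. Their log2 fold changes were -0.41 ± 0.39 for Cpe, -1.39 ± 0.36 for Pcsk2, -1.0 ± 0.31 for Pcsk1 and 0.55 ± 0.31 for Pam. Those of the hormone genes were -3.85 to -3.17. Whole islets were sequenced, so the ratios do not give levels within β cells. Cpe reads per insulin read were 0.0171 to 0.0207 in wild type and 0.153 and 0.161 in βEedKO, an 8.45-fold difference of geometric means. Pcsk2 reads per insulin read were 0.0134 to 0.0212 and 0.0744 and 0.0753, and Pam reads per Iapp read 0.0107 to 0.028 and 0.226 and 0.256. These ratios did not overlap, and at 8 weeks all 3 did. Pcsk1 per insulin read was lower in βEedKO at 8 weeks, 0.000681 to 0.00139 against 0.00153 to 0.00273, and higher at 25 weeks, 0.0081 and 0.0125 against 0.00113 to 0.00257.

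**Figure D4:**
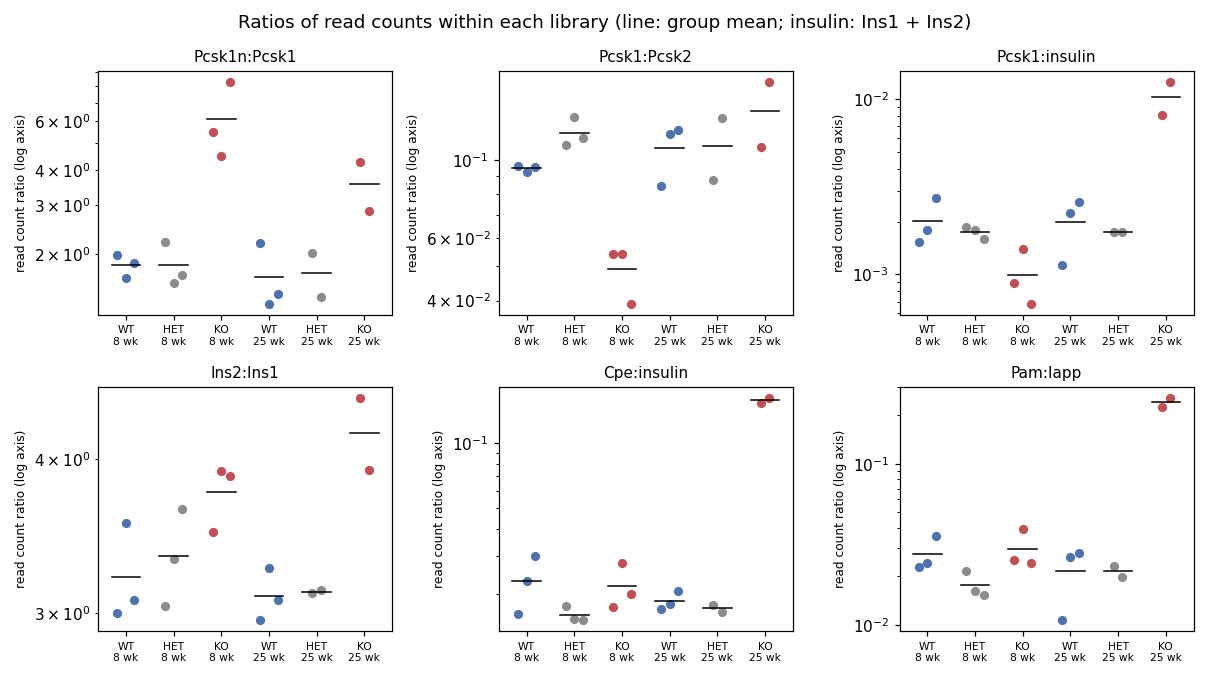
Ratios of read counts within each of the 16 libraries on log axes, by genotype and age; points are libraries, lines group means, and insulin is Ins1 plus Ins2. The ratio of Pcsk1n to Pcsk1 is 4.49 to 8.31 in βEedKO at 8 weeks and 1.65 to 1.99 in wild type, and Cpe per insulin read is 0.153 and 0.161 in βEedKO at 25 weeks.

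Across the 16 libraries the log2 CPM of Ins1 and Ins2 had a Pearson correlation of 0.995, and Iapp correlated with them at 0.973 and 0.974. Pcsk2 followed the hormones at 0.902 to 0.922, whereas Pcsk1 did so at 0.529 to 0.581 and Pcsk1n at 0.213 to 0.270. Cpe and Scg5 correlated at 0.902, and Pcsk1 and Pcsk1n at -0.407. All values share the libraries and their scaling. Without the 2 βEedKO libraries at 25 weeks, a choice made after seeing the data, the correlation over the other 14 libraries was 0.883 for Ins1 with Ins2, 0.680 and 0.697 for Iapp with them, and -0.134 to 0.355 for Pcsk2 with the 3 hormone genes. Cpe and Scg5 then correlated at 0.933 and Pcsk1 and Pcsk1n at -0.802. The nearest genes outside the hormone and processing genes were sought over all 16 libraries, among 9588 genes of at least 10 CPM on average. The search was not repeated without the 2 βEedKO libraries at 25 weeks. The pattern most like that of Ins1 and of Ins2 was 0610040J01Rik, at 0.974 and 0.976, below the 0.995 of Ins1 with Ins2. Next came G6pc2 and Bace2 for Ins1 and Prss53 and Bace2 for Ins2. For Iapp the nearest was the granule protein gene Scg3, at 0.979. The nearest genes were Sec16b for Pcsk1 (0.941), Wnt4 for Pcsk2 (0.953), Aplp1 for Pcsk1n (0.937), Tspan13 for Cpe (0.960), Tceal9 for Scg5 (0.959) and Elovl7 for Pam (0.942).

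Other genes of the pathway were taken from lists and are set against the same shares of all genes at 25 weeks, 4.58% higher and 2.02% lower. The lists too were chosen with earlier results of these data known, and the counts are not tests. Of 7 other convertases, among them Furin, 0 were called in either direction at either age. Of 10 other maturation enzymes 3 rose at 25 weeks, the glutaminyl cyclase gene Qpct (4.18 ± 0.35, adjusted p = 0.000172, edgeR) and the carboxypeptidase-family genes Cpxm1 (3.0 ± 0.60) and Cpz. Cpz had 2 reads in wild type and 83 in βEedKO summed over libraries, a ratio of 38.6 per total count (95% exact interval 10.4 to 324, counting error only). With the replicate block the calls of Cpxm1 and Cpz were lost, at adjusted p of 0.12 and 0.0725. Qpct, which closes the amino end of peptide hormones, was also called at 8 weeks (2.49 ± 0.30, adjusted p = 0.00625) with 26.7, 36.6 and 42.9 CPM in βEedKO against 5.52, 7.38 and 5.98 CPM, but not with the block (2.44, adjusted p = 0.113) or without wild-type replicate 4 (2.46, adjusted p = 0.059).

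Of 21 tested genes for entry into and folding in the endoplasmic reticulum 1 fell, the oxidase gene Ero1lb (-2.16 ± 0.38, adjusted p = 0.0078, edgeR), and 0 rose, and their median was -0.23. The call of Ero1lb was lost under 1 of 20 alternatives. Among 10 granule protein genes Chgb rose (3.21 ± 0.39, adjusted p = 0.00139), and Slc30a8, the zinc transporter of the insulin granule, Scg2 and Scg3 fell (-3.38 ± 0.36, -1.82 ± 0.48 and -1.49 ± 0.36). Slc30a8 was called under all 20 alternatives, whereas the call of Scg2 was lost under 15 and that of Scg3 under 12, with adjusted p up to 0.278 and 0.286 and, with the block, of 0.123 and 0.0726. Of 5 other islet hormone genes the ghrelin gene Ghrl rose (2.19 ± 0.58, adjusted p = 0.0494) and the other 4 were not called. The call of Ghrl was lost under 13 of 20 alternatives, with a log2 fold change of 1.26 and an adjusted p of 0.417 without βEedKO replicate 3, and of 3.04 without wild-type replicate 3. Glucagon message Gcg was 7660 to 8840 CPM in wild type and 11900 and 11400 CPM in βEedKO.

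Among 18 tested precursors in a list of other peptide hormones, which includes Ucn3 of β cells, 5 rose and 1 fell. Their median log2 fold change was 2.92, or 2.54 with 2 genes that had no wild-type reads set at their lower bounds. Cartpt (6.51 ± 0.52, adjusted p = 0.00017, edgeR) and Calca (4.32 ± 0.67) were the next largest rises after Cck, which had 4037 reads in βEedKO at 25 weeks and 0 in wild type. Set against a floor of 3 reads for the 3 wild-type libraries together, Cck was at least 1250-fold higher, although its adjusted p with the block was 0.056. Penk and Pdyn also rose, and the call of Penk at 25 weeks was lost under 1 of 20 alternatives and that of Pdyn under 0. The precursor that fell was that of urocortin 3, Ucn3, a hormone of mature β cells (-5.26 ± 0.39). At 8 weeks Penk, Pdyn and Cartpt were also called higher (4.07 ± 0.64, 2.68 ± 0.47 and 3.05 ± 0.44). With the block all 3 calls were lost, at adjusted p of 0.187, 0.0812 and 0.141, and other alternatives ended them as well, 7 of 20 in all for Penk, 11 for Pdyn and 4 for Cartpt. Of 13 activators of the insulin genes 5 fell, Mafa (-3.76 ± 0.80), Nkx6-1 (-3.48 ± 0.59), Pdx1 (-1.99 ± 0.34), Pax6 and Isl1, and 0 of them were called at 8 weeks. The calls of Nkx6-1 and Pax6 were each lost under 1 of 20 alternatives, and that of Pdx1 under 2. The call of Isl1 was lost under 9 of 20 alternatives, with adjusted p up to 0.228, and that of Mafa without either βEedKO library or wild-type replicate 3 or 4 at 25 weeks, with adjusted p of 0.058 to 0.163.

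**Figure D5:**
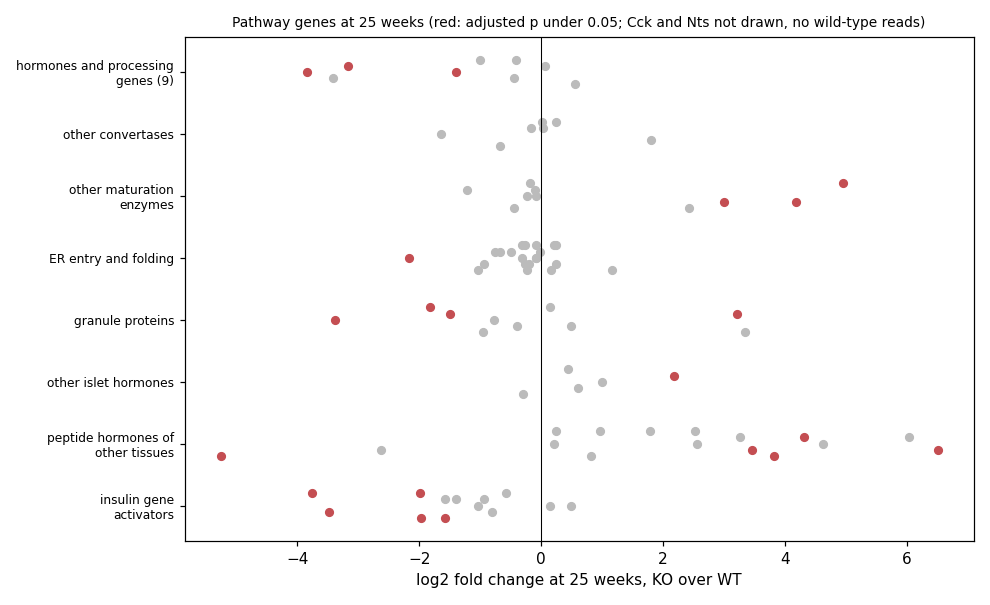
Log2 fold changes of βEedKO over wild type at 25 weeks for the 9 genes and 7 lists of related genes; each point is a gene and red marks an adjusted p under 0.05 in edgeR. Calls among the insulin gene activators, 5 of 13, are all lower. Calls in the list drawn as peptide hormones of other tissues are higher except that of Ucn3, a hormone of mature β cells. Cck and Nts, with no reads in wild type at 25 weeks, are not drawn.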

How the data were processed

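The authors deposited raw read counts per gene for 16 bulk RNA-seq libraries of mouse islets. Per the labels and the study's methods, reads were aligned to GRCm38 with TopHat 2.0.13 and counted on GENCODE M9 models by featureCounts of Subread 1.5.0-p1. The strand setting is not given in the sources used here. Over shared exons, reads of the antisense genes Pcsk2os1 and Pcsk2os2 therefore cannot be told apart from those of Pcsk2. The same holds for Eras, which shares 135 exon bases with Pcsk1n on the other strand. B230216N24Rik shares 188 exon bases with Pam on the same strand, where a strand setting would not separate them. How reads that overlap 2 genes were counted is also not given. The authors also deposited the segmentation, made with EpicSeg from averaged replicates. Columns of counts left unused numbered 0. Single-cell, human, MIN6 and other bulk data were not analysed here. Of 47937 counted identifiers 47310 matched a later GENCODE release of the same build, which gave names, positions and lengths.

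The counts were scaled by TMM and filtered by filterByExpr with the groups, and edgeR 4.0.16 (R 4.3.3; limma 3.58.1) gave quasi-likelihood tests, adjusted by Benjamini-Hochberg over 18685 genes (4 groups of wild type and βEedKO, 11 libraries) or 18828 genes (6 groups, 16 libraries). DESeq2 1.42.0 was an alternative. Genes with an adjusted p under 0.05 were called. The standard error is the absolute log2 fold change over the square root of F. p-values measure the spread between these libraries. What the replicate numbers mark is not stated. At a given age, same-numbered libraries of wild type and βEedKO had correlated deviations from the mean of their groups, at 0.579 and 0.302 at 8 weeks and 0.273 and 0.403 at 25 weeks, although a pair with different numbers at 8 weeks, replicate 3 of wild type with replicate 5 of βEedKO, reached 0.571. Blocked values are therefore given where they change the call of a named gene. Libraries without a partner do not inform them, and the block was not used between ages, within which it is nested. No 2 libraries of a group were alike within sampling noise (chi-square per degree of freedom 34.2 to 654).

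The members and lists were chosen with earlier results of these data known. The named genes are the 9 genes, Eed, up to 3 genes a direction from each list with the largest change among those called at 25 weeks and at least 1 CPM, and the 3 genes most correlated with each member; Penk, Pdyn, Pax6, Isl1, Gcg and Furin were named after their values were seen. Alternatives covered scaling, filter, test, control, block and libraries. The scripts were tested on simulated counts.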

Additional observations from a re-analysis of the deposited data

Results flagged for a closer look

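The ratio of Pcsk1 to insulin reads moved in opposite directions at the 2 ages: at 8 weeks the βEedKO libraries were all under the wild-type ones and at 25 weeks all over them. The difference in log2 ratio, βEedKO minus wild type, was -1.04 at 8 weeks and 2.43 at 25 weeks, and the change between the ages was 3.47. The difference was not tested. Pcsk1 itself did not change direction, with log2 fold changes of -1.03 ± 0.28 at 8 weeks and -1.0 ± 0.31 at 25 weeks. Those of Ins1 were -0.14 ± 0.57 and -3.85 ± 0.76, and those of Ins2 0.08 ± 0.74 and -3.42 ± 0.96. At 25 weeks Pcsk1 was 95 and 185 CPM in βEedKO and 212, 315 and 280 CPM in wild type. Ins1 was 2140 and 3000 CPM against 47400, 32800 and 26800 CPM. No group was large enough for a search for outlying libraries.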

How the results depend on the processing

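Over all genes, the number called between βEedKO and wild type was 1234 at 25 weeks, 81 at 8 weeks and 37 for the difference of the ages, and 281 between the ages in βEedKO. DESeq2 gave 2093, 393, 340 and 960, with 139 between the ages in wild type and 407 and 3 for heterozygous islets at 8 and 25 weeks; it called 5, 1, 4 and 5 of the 9 genes, and 1 (Pam) in heterozygous islets at 8 weeks. Pooled controls gave 2649 and 503 genes, with 5 and 2 of the 9. A fit of all 6 groups, chosen after seeing the data, called 5 of the 9 at 25 weeks and 4 between the ages in βEedKO, with 473 genes there, 90 for the difference of the ages and 4 in wild type. Without the filter 137 genes were called at 8 weeks, 73 for the difference, 8 between the ages in wild type, 5 in heterozygous islets at 8 weeks, and 0 of the 9 between the ages in βEedKO. Library size alone gave 11 for the difference, 1 in wild type, and 168 in βEedKO with 0 of the 9.

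With the replicate block 1 of the 9 genes (Pcsk1) was called at 25 weeks, 0 genes at 8 weeks and 2 for the difference. With the block and library size alone the counts were 1988, 265 and 241, with 0 of the 9 at 25 weeks, and 32 in heterozygous islets at each age. No fit with the block was made between ages, since replicate numbers are nested in them.

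Leaving out 1 library at a time gave 392 to 1609 genes and 0 to 3 of the 9 at 25 weeks, 18 to 135 genes at 8 weeks, 10 to 40 for the difference, 36 to 386 genes and 0 to 1 of the 9 between the ages in βEedKO, 0 to 5 in wild type, and 0 to 601 genes and 0 to 1 of the 9 in heterozygous islets at 8 weeks. Where this left 1 library in a group, that library was assumed to vary like the other groups.

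The sign of log2 values near 0, none of them called, changed as follows. βEedKO against wild type at 8 weeks: with library size alone Ins1 0.06, Pcsk2 0.11, Cpe 0.13 and Scg5 0.18; for Scg5 0.02 with RLE factors, with TMM computed without the 9 genes and with DESeq2, 0.01 with the block and 0 with 6 groups; with the block and library size alone Ins1 0.01, Pcsk2 0.17, Cpe 0.23, Scg5 0.26 and Pam 0.10; with pooled controls Pcsk2 0.12, Cpe 0.14, Scg5 0.22 and Pam 0.14. Difference of the ages: Pcsk1 -0.13 with the block and -0.30 with library size alone as well. Between the ages: in wild type Ins1 0.09 and Ins2 0.03 with library size alone and Ins1 0 with RLE or DESeq2, and in βEedKO Pcsk1 0.17 with library size alone. Heterozygous islets at 8 weeks: with the block Ins1 -0.08, Ins2 -0.04, Pcsk1 0 and Pcsk1n 0.07, and with library size alone as well Ins1 -0.02, Pcsk1 0.06 and Pcsk1n 0.13; at 25 weeks Iapp 0 with library size alone. The cause was not tested.

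With 1 library left out the ranges that crossed 0 were, at 8 weeks, Ins1 -0.30 to 0.06, Ins2 -0.11 to 0.26, Pcsk2 -0.20 to 0.02, Cpe -0.21 to 0.11 and Scg5 -0.20 to 0.20, at 25 weeks Pcsk1n -0.13 to 0.22, and for the difference Pcsk1 -0.54 to 0.41. Between the ages in wild type they were Ins1 -0.29 to 0.14, Ins2 -0.31 to 0.08, Iapp -0.71 to 0.05 and Pcsk1 -0.26 to 0, and in βEedKO Pcsk1 -0.66 to 0.26 and Pam -0.14 to 0.20. In heterozygous islets they were Ins1 -0.11 to 0.09, Ins2 -0.07 to 0.23 and Pcsk1n -0.22 to 0.05 at 8 weeks, and Ins1 -0.05 to 0.40, Ins2 -0.04 to 0.37, Iapp -0.34 to 0.42, Pcsk1 -0.14 to 0.26, Pcsk2 -0.02 to 0.15, Cpe -0.08 to 0.21 and Scg5 -0.38 to 0.17 at 25 weeks. Ins1, Ins2, Iapp, Pcsk1 and Pcsk2 stayed lower in βEedKO at 25 weeks under all alternatives run. With 2 βEedKO libraries at 25 weeks and a common biological coefficient of variation of 0.456, small differences could not be detected.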
